A study of Homo sapiens with 6 samples.

Results

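The keratins described here are 9 genes, KRT7, KRT8, KRT10, KRT15, KRT17, KRT18, KRT19, KRT80 and KRT81, taken as every probe that the platform annotation assigns to one of these symbols. Of the 9 genes 7 had a probe, 9 probes in all, among 48701 probes and 18833 named genes of the array. The annotation used here lists no probe for KRT17 or KRT81, so neither is analysed here. The symbols were chosen from earlier results of these arrays, that is, from signals on all 6 arrays and their comparison between siRNAs, and which value decided for each gene is not recorded. Every signal and every comparison of the 7 genes is therefore a description: adjusted p-values beside them say where a gene stood in the fit of all features and are not independent evidence.

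The arrays came from A549, a human lung adenocarcinoma cell line with epithelial features, grown in DMEM with 10% FCS. There were 3 groups of 2 arrays each: cells transfected with ncRNA-a7 siRNA, cells transfected with Snai1 siRNA, and cells transfected with a control siRNA. All groups thus underwent transfection and share 1 cell line, no untransfected cells were analysed here, and the labels do not say whether both arrays of a group stem from different cultures. Each p-value below therefore reflects array-to-array spread alone, possibly technical. SNAI1 is a zinc finger repressor of epithelial genes, and ncRNA-a7 is a noncoding transcript from a locus close to it.

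Keratins are the intermediate filament proteins of epithelial cells. A filament is built from heterodimers of an acidic type I chain (here KRT10, KRT15, KRT17, KRT18 and KRT19) and a basic type II chain (here KRT7, KRT8, KRT80 and KRT81), and it is anchored at desmosomes and hemidesmosomes. Simple epithelia such as lung typically carry KRT8 with KRT18, together with KRT7 and KRT19, while KRT10 and KRT15 are best known from suprabasal and basal epidermis. The type II genes and KRT18 lie in the cluster on chromosome 12, and the other type I genes in the cluster on chromosome 17. KRT80 and KRT7 are nearest protein-coding neighbours there in the table of RefSeq assembly GRCh38.p14, and so are KRT8 and KRT18, whose listed intervals overlap.

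The RefSeq promoter table (GRCh38.p14) matched 2 of the 9 genes, KRT8 and KRT10, and also KRT4, a type II keratin of stratified mucosa described further on. The 250 bases before each listed start are shown because SNAI1 is known to bind E-boxes, with every match to the general E-box CANNTG, which reads the same on both strands, in capitals. All 3 windows lie on the minus strand, and the KRT8 gene interval reaches past this start, so the KRT8 window is that of 1 listed start.
KRT8, chr12:52926470-52926719: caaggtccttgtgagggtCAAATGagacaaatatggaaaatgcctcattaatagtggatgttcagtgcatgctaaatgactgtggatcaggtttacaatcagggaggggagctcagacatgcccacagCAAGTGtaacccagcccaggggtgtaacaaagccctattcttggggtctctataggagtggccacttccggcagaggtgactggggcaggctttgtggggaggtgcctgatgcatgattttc
KRT10, chr17:40822615-40822864: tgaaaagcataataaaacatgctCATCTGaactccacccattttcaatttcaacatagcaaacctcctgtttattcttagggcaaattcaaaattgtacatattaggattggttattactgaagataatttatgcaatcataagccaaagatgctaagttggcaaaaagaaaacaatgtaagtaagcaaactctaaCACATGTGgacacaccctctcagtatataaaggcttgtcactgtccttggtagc
KRT4, chr12:52814117-52814366: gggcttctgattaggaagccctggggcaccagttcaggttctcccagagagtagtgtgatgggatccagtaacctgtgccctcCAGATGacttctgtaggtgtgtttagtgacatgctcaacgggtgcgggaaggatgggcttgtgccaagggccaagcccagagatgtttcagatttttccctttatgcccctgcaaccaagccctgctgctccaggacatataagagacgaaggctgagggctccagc
The KRT8 window held 2 such matches, the KRT10 window 3, of which 2 overlap, and the KRT4 window 1. The form best known for SNAI1, CACCTG or CAGGTG on the other strand, occurred in 0 of these 3 windows and in 17.5% of 35116 windows of the same length, while 61.8% of those windows held at least 1 CANNTG. A match is a run of letters and not a shown site, and the lack of one says only that these letters are not in this window.

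The mean signal of the arrays was 715 on Snai1 siRNA replicate 2 and 806 to 914 on the others, and the median ran from 147 to 154. Log2 signals correlated across probes at 0.994 to 0.995 within a group and 0.989 to 0.992 between groups. No direct measure of array or RNA quality was used here. The targets could not be checked. The SNAI1 probe read 139 and 147 with ncRNA-a7 siRNA, 127 and 127 with Snai1 siRNA, and 143 and 144 with control siRNA. The probe of TRERNA1, a name for ncRNA-a7 taken from general knowledge, read 130 and 132 with ncRNA-a7 siRNA, 143 and 129 with Snai1 siRNA, and 118 and 118 with control siRNA. Both lay below the filter, which kept the brighter 24350 probes, and were not called over all probes (limma adjusted p from 0.281 to 0.997), so it was not shown that either siRNA lowered its target. The TRERNA1 probe read above control with ncRNA-a7 siRNA (log2 difference 0.27 ± 0.14, limma adjusted p = 0.427), which is opposite in direction to a lowered target. With Snai1 siRNA the TRERNA1 probe read above control too (0.36 ± 0.14, adjusted p = 0.281). The SNAI1 probe read below control with Snai1 siRNA (-0.25 ± 0.14, adjusted p = 0.479), the direction of a lowered target. Groups are therefore named by the siRNA their labels give.

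Against control, KRT80 was higher with ncRNA-a7 siRNA and lower with Snai1 siRNA, and KRT7 was lower with Snai1 siRNA. KRT8 was called higher and KRT18 lower with ncRNA-a7 siRNA, by smaller amounts and with calls that most alternatives lost, and neither was called with Snai1 siRNA. KRT10, KRT15 and KRT19 were called in none of the 3 comparisons. Signals are given first as deposited, on a linear scale and not normalized. Fold changes are from normalized log2 values, and a call is a Benjamini-Hochberg adjusted p under 0.05 over 19730 features in 1 limma fit of all 6 arrays. A lower level in such bulk RNA cannot tell fewer cells with the transcript from less transcript per cell.

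**Figure D1:**
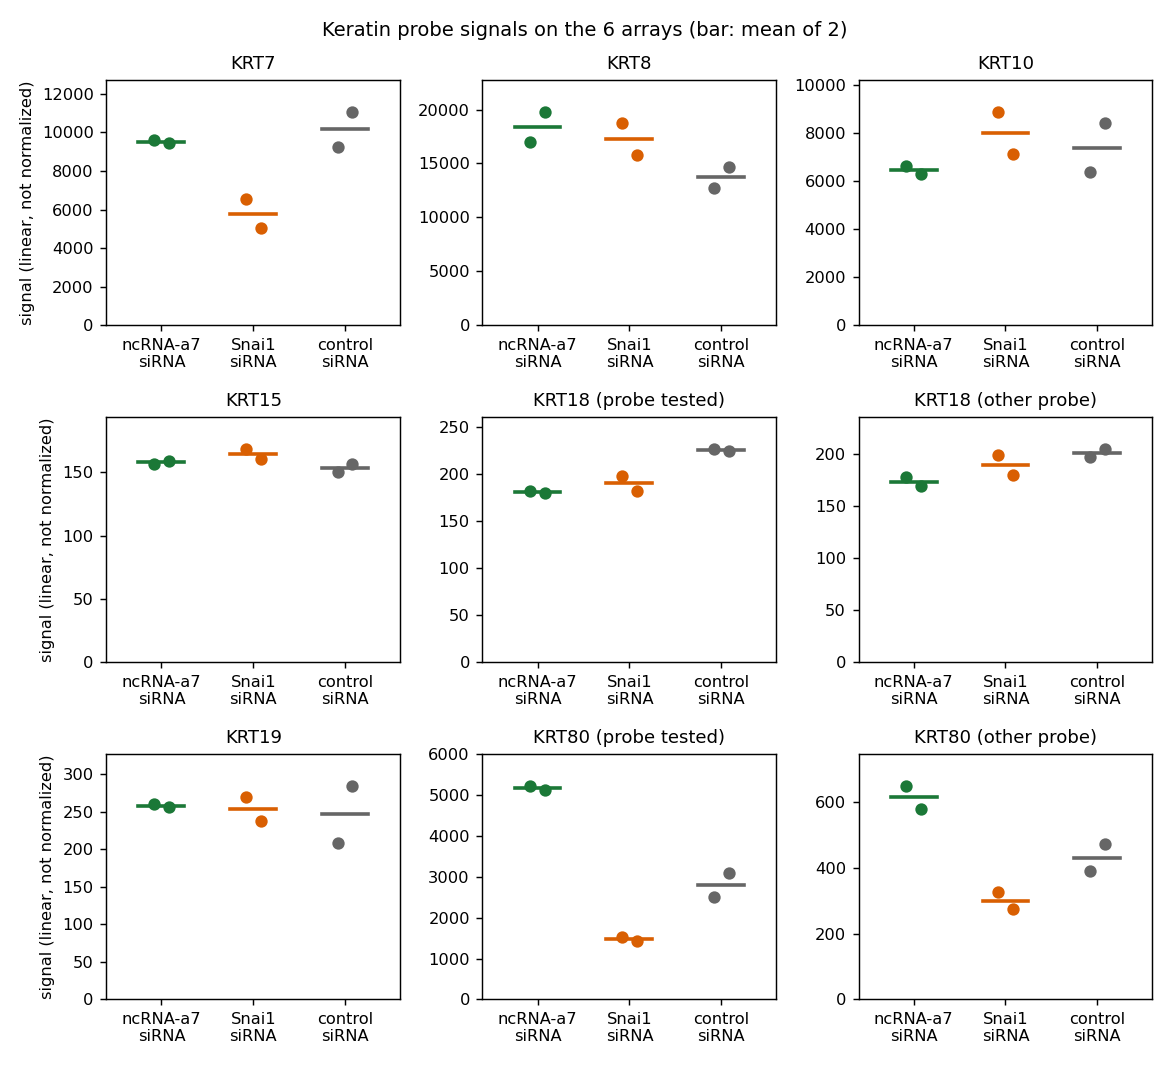
Deposited linear signal (vertical axis, starting at 0) of the 9 keratin probes on the 6 arrays, with ncRNA-a7 siRNA on the left, Snai1 siRNA in the middle and control siRNA on the right; dots are arrays and bars the mean of 2. KRT80 lies at 5118 and 5218 with ncRNA-a7 siRNA, at 1438 and 1527 with Snai1 siRNA and between with control, and KRT7 is low with Snai1 siRNA.

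KRT80 is a type II keratin that occurs in many epithelia and is known to gather near desmosomes in differentiating cells. Its brighter probe read 5218 and 5118 with ncRNA-a7 siRNA, 1527 and 1438 with Snai1 siRNA, and 2503 and 3088 with control siRNA. The 3 groups did not overlap, and the order was ncRNA-a7 siRNA, control, Snai1 siRNA, with every neighbouring pair called. In arrays with ncRNA-a7 siRNA KRT80 was 2.00-fold above control (log2 change 1.00 ± 0.14 SE, n = 2 per group, limma adjusted p = 0.00102). Snai1 siRNA arrays lay 1.74-fold below control (log2 change -0.80 ± 0.14 SE, limma adjusted p = 0.00401). Both comparisons use the same 2 control arrays. Set directly against each other, the ncRNA-a7 siRNA arrays were above the Snai1 siRNA arrays by 1.80 ± 0.14 on the log2 scale (3.48-fold, limma adjusted p = 6.49e-05).

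The second KRT80 probe, annotated to the same transcript accession, was dimmer and kept the order. It read 648 and 579 with ncRNA-a7 siRNA, 325 and 276 with Snai1 siRNA, and 389 and 471 with control siRNA, again without overlap. In the fit of all probes its log2 change was 0.62 ± 0.13 SE with ncRNA-a7 siRNA against control (limma adjusted p = 0.0349), -0.51 ± 0.13 with Snai1 siRNA against control (adjusted p = 0.0802) and 1.13 ± 0.13 between the siRNAs (adjusted p = 0.00189). Log2 changes of a dim probe are understated by the offset of 50, and the cause of the smaller change was not tested.

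KRT7, a type II keratin of glandular and simple ductal epithelia, read 9610 and 9444 with ncRNA-a7 siRNA, 6531 and 5045 with Snai1 siRNA, and 9256 and 11076 with control siRNA. Both Snai1 siRNA arrays lay below all other arrays, while ncRNA-a7 siRNA and control overlapped. In arrays with Snai1 siRNA KRT7 was 1.60-fold below control (log2 change -0.68 ± 0.11 SE, n = 2 per group, limma adjusted p = 0.00353). Arrays with ncRNA-a7 siRNA exceeded those with Snai1 siRNA by 0.70 ± 0.11 on the log2 scale (limma adjusted p = 0.00439). Between ncRNA-a7 siRNA and control the difference was 0.02 ± 0.11 (adjusted p = 0.945), with a 95% interval of -0.23 to 0.27. The annotated interval of KRT7 also holds the antisense gene KRT7-AS, and whether the probe reads any of it was not tested.

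KRT8, the type II chain of the simple epithelial filament, lay at percentiles 98.9 to 99.5 of all probes. It read 16972 and 19793 with ncRNA-a7 siRNA, 18786 and 15783 with Snai1 siRNA, and 12755 and 14662 with control siRNA. The ncRNA-a7 and Snai1 siRNA arrays overlapped each other and lay above both controls. In arrays with ncRNA-a7 siRNA KRT8 was 1.41-fold above control (log2 change 0.49 ± 0.14 SE, n = 2 per group, limma adjusted p = 0.0410). With Snai1 siRNA the difference was of like size, 0.47 ± 0.14, and just missed the threshold (adjusted p = 0.0536), and the difference between the siRNAs was 0.03 ± 0.14 (95% interval -0.27 to 0.32).

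Both KRT8 values stood near the threshold. Of 15 alternatives the ncRNA-a7 siRNA call was kept in 6 and the Snai1 siRNA difference was called in 7. The ncRNA-a7 siRNA call was lost without ncRNA-a7 siRNA replicate 2 (log2 change 0.31), control siRNA replicate 1 (0.47) or control siRNA replicate 2 (0.52). It was also lost with the compared groups alone, at the same log2 change. Leaving out either Snai1 siRNA array gives that same fit and is no separate loss. KRT8 has many processed pseudogenes of near-identical sequence, so part of its signal could belong to other copies, which was not tested.

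KRT18, the type I partner of KRT8, gave signals in the dim part of the arrays, at percentiles 65.3 to 72.2 of all probes. Its brighter probe read 182 and 180 with ncRNA-a7 siRNA, 198 and 183 with Snai1 siRNA, and 227 and 225 with control siRNA. The ncRNA-a7 and Snai1 siRNA arrays lay below the controls without overlap. In arrays with ncRNA-a7 siRNA KRT18 was 1.34-fold below control (log2 change -0.42 ± 0.12 SE, n = 2 per group, limma adjusted p = 0.0445), and the difference with Snai1 siRNA was -0.27 ± 0.12 (adjusted p = 0.191). The call was kept in 1 of 14 alternatives, the one with no background correction. It was lost without any 1 array of ncRNA-a7 siRNA or control siRNA (log2 changes from -0.53 to -0.32). It was also lost with the compared groups alone, the same fit as without either Snai1 siRNA array.

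The second KRT18 probe, annotated to another transcript, read 178 and 169 with ncRNA-a7 siRNA, 199 and 180 with Snai1 siRNA, and 197 and 205 with control siRNA. Its log2 change in the fit of all probes was -0.28 ± 0.13 with ncRNA-a7 siRNA and -0.06 ± 0.13 with Snai1 siRNA, neither called (limma adjusted p = 0.378 and 0.903). KRT18 too has many near-identical pseudogenes. With no negative control probes in the tables as used here, how far these signals stand above background was not measured.

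**Figure D2:**
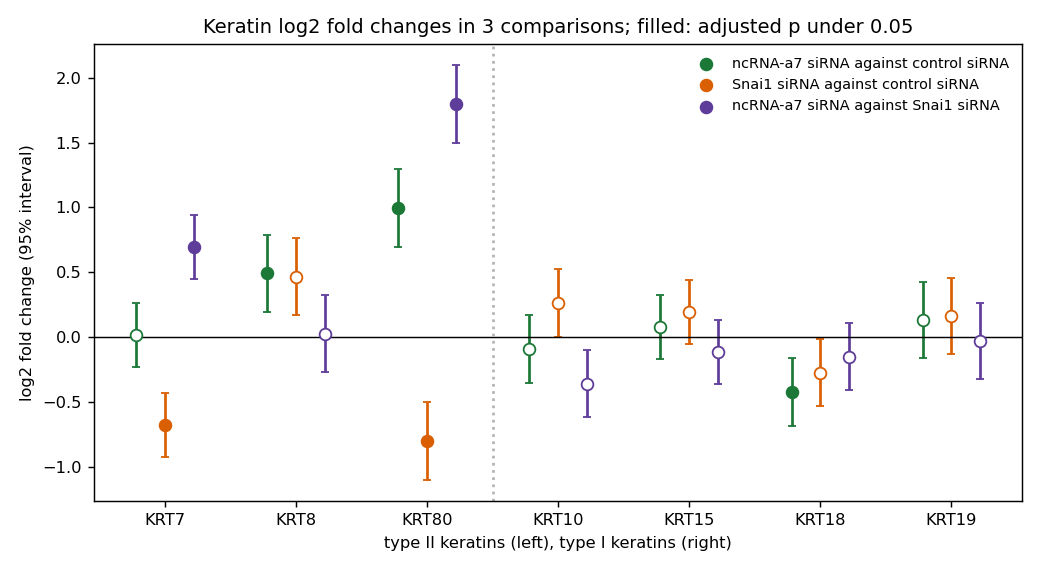
Log2 fold change (vertical axis) of the 7 measured keratins in 3 comparisons, with 95% intervals from the limma fit as bars; filled points have an adjusted p under 0.05, and the dotted line parts type II from type I keratins. KRT80 lies at 1.00, -0.80 and 1.80, and the type I keratins lie between -0.42 and 0.26.

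KRT10, the type I chain known from suprabasal epidermis, read 6614 and 6274 with ncRNA-a7 siRNA, 8877 and 7128 with Snai1 siRNA, and 6373 and 8399 with control siRNA. Both of the other groups overlapped the widely spread controls in these signals, and after normalization the Snai1 siRNA arrays lay above them. Its log2 difference from control was -0.09 ± 0.12 with ncRNA-a7 siRNA and 0.26 ± 0.12 with Snai1 siRNA (limma adjusted p = 0.693 and 0.210). Between the siRNAs it was -0.36 ± 0.12 (adjusted p = 0.0931), which was called in 2 of 15 alternatives. The main probe of its antisense neighbour KRT10-AS1 read 3251 and 3356 with ncRNA-a7 siRNA, 3450 and 2410 with Snai1 siRNA, and 3198 and 3654 with control siRNA.

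KRT19, a small type I keratin of simple epithelia, read 260 and 256 with ncRNA-a7 siRNA, 269 and 237 with Snai1 siRNA, and 209 and 285 with control siRNA. Its control arrays spanned both other groups, and its log2 differences from control were 0.13 ± 0.13 and 0.16 ± 0.13 with ncRNA-a7 and Snai1 siRNA (limma adjusted p = 0.609 and 0.520). KRT15, a type I keratin of basal keratinocytes, read 156 and 159 with ncRNA-a7 siRNA, 168 and 160 with Snai1 siRNA, and 150 and 156 with control siRNA. At percentiles 50.7 to 61.3 of all probes it lay just above the filter, and it differed from control by 0.08 ± 0.11 and 0.20 ± 0.11 (adjusted p = 0.726 and 0.333). The 95% intervals of KRT19 reach from -0.16 to 0.42 with ncRNA-a7 siRNA and from -0.13 to 0.46 with Snai1 siRNA, so the arrays leave room for changes of that size.

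Among the 7 measured keratins the type II ones varied most over the 6 arrays. The range of normalized log2 values was 2.02 for KRT80, 0.77 for KRT7 and 0.70 for KRT8, against 0.55 for KRT18, 0.42 for KRT10, 0.38 for KRT19 and 0.21 for KRT15. No test was made of this order, and a dim probe has a compressed range. Other type II keratins that passed the filter had ranges from 0.39 (KRT72) to 1.07 (KRT4), so nothing is said of type II keratins as a class. With ncRNA-a7 siRNA against control 3 of 7 keratins were called (KRT8 and KRT80 higher, KRT18 lower), where 9.83% of all features were called, 5.73% higher and 4.11% lower. With Snai1 siRNA against control 2 of 7 were called, KRT7 and KRT80, both lower, where 9.15% of all features were, 4.89% higher and 4.26% lower. Between the siRNAs KRT7 and KRT80 were called, both higher with ncRNA-a7 siRNA, where 8.10% of all features were, 4.73% higher and 3.37% lower. Of the features called with Snai1 siRNA against control 53.4% were higher, and 33.8% with median scaling of the arrays, and between the siRNAs 58.4% were higher, and 70.6% with that scaling. The normalized arrays did not overlap for 4 of 7 keratins with ncRNA-a7 siRNA against control, where 52.0% of all features did not, for 6 of 7 with Snai1 siRNA against control, where 53.4% did not, and for 5 of 7 between the siRNAs, where 50.9% did not. The median log2 change of the 7 keratins was 0.08, 0.16 and -0.03 in these comparisons, against -0.01, -0.01 and -0.01 over all features. Since the genes were chosen with these comparisons known, nothing is read from the counts.

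**Figure D3:**
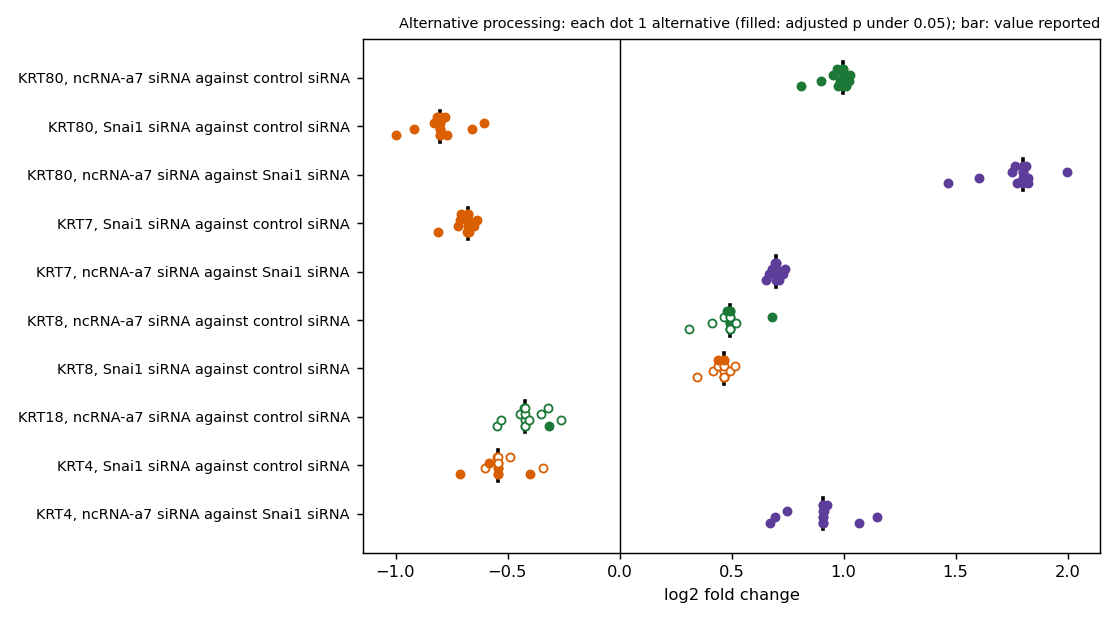
Log2 fold change (horizontal axis) of KRT80 in 3 comparisons, KRT7 and KRT4 in the 2 with Snai1 siRNA, KRT8 in the 2 against control and KRT18 with ncRNA-a7 siRNA against control under each alternative way of processing the arrays, 1 dot per alternative, filled where the adjusted p is under 0.05; the black bar is the value reported. All dots drawn for KRT80 and for KRT7 are filled, while most of KRT18 are open.

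Calls of KRT80 in all 3 comparisons and of KRT7 in both comparisons with Snai1 siRNA held in each of the 15 alternatives. For KRT80 the log2 change ran from 0.81 to 1.03 with ncRNA-a7 siRNA against control and from 1.47 to 2.00 between the siRNAs. With Snai1 siRNA against control it fell by 0.61 to 1.00 on the log2 scale. For KRT7 it ran from -0.81 to -0.64 with Snai1 siRNA against control and from 0.65 to 0.74 between the siRNAs. The 15 alternatives are not all separate checks. Leaving out either array of the group not compared repeats the fit of the compared groups alone.

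Besides these genes the array measured 41 other keratin genes with 47 probes, of which 29 genes lay below the filter, with a median signal of 130.8 and none above 171.7. Of the 12 that passed, 1 was called, KRT4, with Snai1 siRNA against control and between the siRNAs. Over all features 9.15% and 8.10% were called in these comparisons, so nothing is read from the count. KRT4 read 259 and 304 with ncRNA-a7 siRNA, 175 and 165 with Snai1 siRNA, and 213 and 252 with control siRNA. The groups did not overlap and their order was that of KRT80. In each comparison 50.9% to 53.4% of all features did not overlap. KRT4 lay at percentiles 63.5 to 75.6 of all probes, in the dim part of the arrays like KRT18. The ncRNA-a7 siRNA arrays exceeded the Snai1 siRNA arrays by 0.91 ± 0.13 for KRT4 on the log2 scale (n = 2 per group, limma adjusted p = 0.00226), a call kept in all 14 alternatives that tested it. KRT4 was lower with Snai1 siRNA than control (log2 change -0.54 ± 0.13, adjusted p = 0.0228). That call was lost with the authors' scaled values, with no filter, and on leaving out either array of Snai1 siRNA or of control siRNA (adjusted p up to 0.159). Against control, KRT4 differed by 0.37 ± 0.13 with ncRNA-a7 siRNA (adjusted p = 0.105).

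The other 11 keratin genes that passed were called in none of the 3 comparisons by limma. Of the 12, 0 were called with ncRNA-a7 siRNA against control, and 2 had an unadjusted p under 0.05. Over all 12 the log2 differences ran from -0.37 to 0.37 with ncRNA-a7 siRNA against control, from -0.54 to 0.18 with Snai1 siRNA against control and from -0.23 to 0.91 between the siRNAs. The 3 uncalled genes with the highest mean signal were KRT222, KRT23 and KRT9. KRT222, a keratin-like gene, read 337 and 327 with ncRNA-a7 siRNA, 336 and 292 with Snai1 siRNA, and 336 and 448 with control siRNA. KRT23, a type I keratin of gland and gut epithelia, read 249 and 280 with ncRNA-a7 siRNA, 276 and 281 with Snai1 siRNA, and 309 and 314 with control siRNA. KRT9, a type I keratin of palm and sole epidermis, read 223 and 203 with ncRNA-a7 siRNA, 198 and 166 with Snai1 siRNA, and 187 and 197 with control siRNA.

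Profiles most like those of the called keratins were found by the root mean square difference of log2 values over the 6 arrays, each gene centred on its own mean, among the named genes that passed the filter. Nearest to KRT80 was S100A10, at 0.16, with log2 changes of 0.66 with ncRNA-a7 siRNA and -1.10 with Snai1 siRNA against control. IFNAR1 (0.20), UROD (0.24), BMPR2 (0.24) and PRTFDC1 (0.27) followed. Nearest to KRT7 were PNPLA4 (0.05), VMA22 (0.06), SSBP1 (0.06), WWC3 (0.06) and ADAT1 (0.06). For KRT8 they were GCC2 (0.03), CDH17 (0.04), TUBB4B (0.05), S1PR3 (0.05) and IQGAP1 (0.05), and for KRT18 they were PRIM1, B3GNT4, TRUB1, SCAND2P and SLC39A7, at 0.03 to 0.04. With 6 arrays and 13057 named genes near profiles are easily found, and nothing is said here of shared function.

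**Figure D4:**
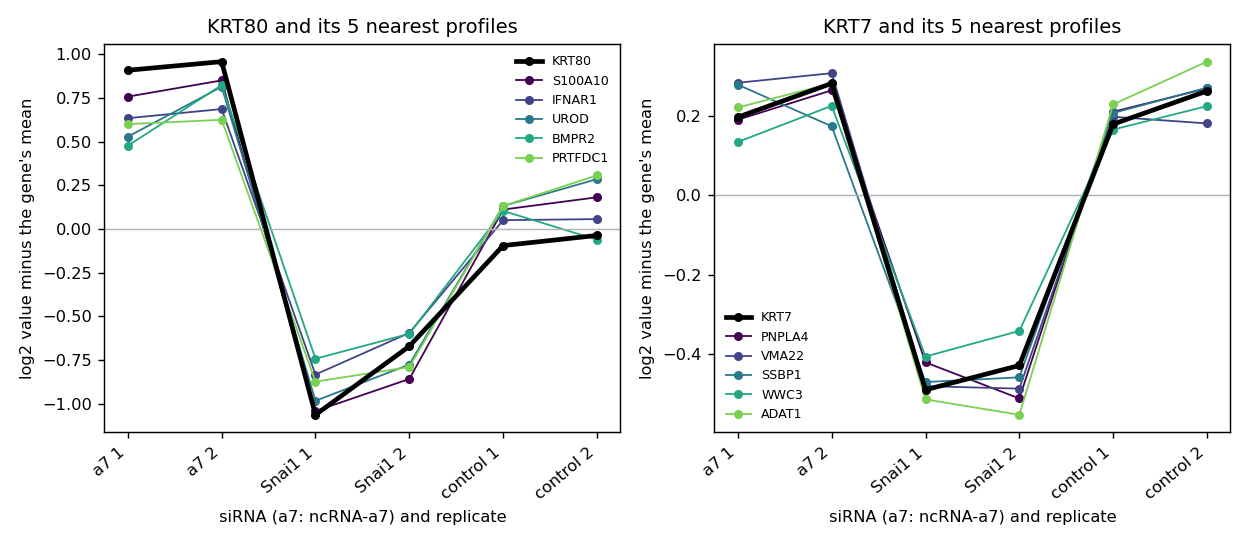
Normalized log2 value minus the gene's mean (vertical axis) on the 6 arrays for KRT80 and KRT7 (black) and the 5 named genes nearest to each (colours); lines join the arrays of a gene and mark no order in time. KRT80 and its neighbours are high with ncRNA-a7 siRNA and low with Snai1 siRNA, and KRT7 and its neighbours are low with Snai1 siRNA.

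Those genes that anchor keratin filaments and were called against control were higher. Over all features 5.73% were called higher and 4.11% lower with ncRNA-a7 siRNA, and 4.89% and 4.26% with Snai1 siRNA. The lists were chosen with earlier results known, and nothing is read from the counts of this list or of those below. Of 11 linker and plakin genes 9 were tested. With ncRNA-a7 siRNA against control 3 were higher and 0 lower, namely PPL, the desmosomal plakin periplakin (log2 change 0.83 ± 0.12 SE, n = 2 per group, limma adjusted p = 0.00102), PKP2, the desmosomal plaque protein plakophilin 2 (0.94 ± 0.16, adjusted p = 0.00305), and the cytoskeletal crosslinker MACF1 (0.64 ± 0.14, adjusted p = 0.0122). With Snai1 siRNA against control 2 were higher and 0 lower, PKP2 (1.42 ± 0.16, adjusted p = 0.000305) and the hemidesmosomal linker PLEC (0.58 ± 0.14, adjusted p = 0.0212). The list's median log2 change was 0.27 with ncRNA-a7 siRNA and 0.24 with Snai1 siRNA, against -0.01 over all features in both. Calls of PPL and PKP2 held in all alternatives, while that of MACF1 was lost in 5 of 15, among them without ncRNA-a7 siRNA replicate 1, control siRNA replicate 1 or control siRNA replicate 2 (adjusted p up to 0.0911). That of PLEC was also lost in 5, among them without Snai1 siRNA replicate 2 or control siRNA replicate 1 (adjusted p up to 0.223).

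Between the siRNAs 2 of the 9 linkers were higher with ncRNA-a7 siRNA, MACF1 by 0.59 ± 0.14 and PPL by 0.47 ± 0.12 on the log2 scale (limma adjusted p = 0.0215 and 0.0282). PLEC was lower by a log2 difference of -0.56 ± 0.14 (adjusted p = 0.0293). Calls were kept in 10 of 15 alternatives for MACF1, 3 of 14 for PPL and 8 of 15 for PLEC. Each of these 3 calls was lost with an offset of 16, with no filter, without ncRNA-a7 siRNA replicate 1 and without Snai1 siRNA replicate 1. Those of PPL and PLEC were lost with median scaling and without Snai1 siRNA replicate 2 or ncRNA-a7 siRNA replicate 2 as well. That of PPL was also lost with the authors' scaled values and with the compared groups alone, the same fit as without either control array. That of MACF1 was also lost with the mean of a gene's probes. Of 7 hemidesmosome genes 4 were measured and tested, with 1 higher with ncRNA-a7 siRNA against control, 2 higher with Snai1 siRNA against control and 0 lower in either. ITGB4, the integrin subunit that binds plectin, was higher with both siRNAs (log2 change 1.51 ± 0.12 with ncRNA-a7 siRNA, limma adjusted p = 2.37e-05, and 1.82 ± 0.12 with Snai1 siRNA, adjusted p = 9.95e-06) in all 15 alternatives. Its partner ITGA6 was higher with Snai1 siRNA (0.46 ± 0.11, limma adjusted p = 0.0267), a call kept in 8 of 15 alternatives. It was lost with an offset of 16, median scaling or no filter, and without either array of Snai1 siRNA or of control siRNA. Between the siRNAs 0 of the 4 were called by limma, and 1 had an unadjusted p under 0.05.

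Other intermediate filament genes offered a comparison within the same protein superfamily. Of 13 listed 10 were tested, and LMNA, which encodes the nuclear lamins A and C, was 2.16-fold higher with ncRNA-a7 siRNA (limma adjusted p = 0.00139) and 1.81-fold higher with Snai1 siRNA (adjusted p = 0.00703) than control. The Snai1 siRNA call of LMNA was lost without Snai1 siRNA replicate 2 or control siRNA replicate 2 (adjusted p up to 0.0807). VIM, the mesenchymal filament vimentin that A549 cells express beside keratins, differed from control by 0.34 ± 0.11 with ncRNA-a7 siRNA (adjusted p = 0.0809) and 0.06 ± 0.11 with Snai1 siRNA (adjusted p = 0.797). In VIM the signals were 24116 and 20452 with ncRNA-a7 siRNA, 19054 and 15869 with Snai1 siRNA, and 17316 and 19089 with control siRNA. In all 1 of the 10 was called with ncRNA-a7 siRNA, LMNA, and 2 with Snai1 siRNA, LMNA and the lens filament gene BFSP1 (0.55 ± 0.14, lost in 6 of 14 alternatives, among them without Snai1 siRNA replicate 2, control siRNA replicate 1 or control siRNA replicate 2, with adjusted p up to 0.233). Between the siRNAs SYNC, the muscle protein syncoilin, was higher with ncRNA-a7 siRNA (0.59 ± 0.13, adjusted p = 0.0198). Its call was kept in 7 of 14 alternatives. Averaging a gene's probes, taking the authors' scaled values, dropping the filter, median scaling and an offset of 16 each removed the SYNC call. So did leaving out Snai1 siRNA replicate 2 or ncRNA-a7 siRNA replicate 2.

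Among 13 tested genes for proteins that bind, fold or degrade keratins, 0 were called with ncRNA-a7 siRNA against control by limma, and 4 had an unadjusted p under 0.05. With Snai1 siRNA against control 2 were higher and 1 lower. DNAJB6, a chaperone known to bind KRT18, was lower (log2 change -0.71 ± 0.11 SE, n = 2 per group, limma adjusted p = 0.00286), and SFN, the 14-3-3 sigma protein known to bind keratins, was higher (0.69 ± 0.12, adjusted p = 0.00380), both in all 15 alternatives. YWHAE, another 14-3-3 protein, was higher by 0.51 ± 0.14 (adjusted p = 0.0400), a call lost in 7 of 15, among them without Snai1 siRNA replicate 2, control siRNA replicate 1 or control siRNA replicate 2 (adjusted p up to 0.411). Between the siRNAs SFN was lower with ncRNA-a7 siRNA (-0.44 ± 0.12, adjusted p = 0.0381), and SQSTM1, the autophagy receptor p62, was higher (0.54 ± 0.14, adjusted p = 0.0409). Each of these calls was kept in 4 of 15 alternatives. Both were lost with an offset of 16, median scaling or no filter, and without any 1 array of ncRNA-a7 siRNA or Snai1 siRNA. They were also lost with the compared groups alone, the same fit as without either control array.

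Of 21 transcription factors known to act on keratin genes 18 were tested. With ncRNA-a7 siRNA against control 0 were higher and 2 lower, KLF4, a factor of epithelial differentiation (log2 change -0.95 ± 0.12 SE, n = 2 per group, limma adjusted p = 0.000699), and the AP-2 family factor TFAP2C (-0.54 ± 0.12, adjusted p = 0.0123). With Snai1 siRNA against control 1 was higher and 4 lower. Lower were TFAP2A (-0.90 ± 0.16, adjusted p = 0.00449) and TFAP2C (-0.52 ± 0.12, adjusted p = 0.0163) with KLF4 and JUN (-0.45 each), named after their values were seen, and the higher one was the AP-1 factor FOSL1 (0.50 ± 0.13, adjusted p = 0.0368). The list's median log2 change was -0.14 with ncRNA-a7 siRNA and -0.06 with Snai1 siRNA against control, beside -0.01 over all features in both, and nothing particular to the list is read from its counts. Between the siRNAs 1 of 18 was called by limma, KLF4, lower with ncRNA-a7 siRNA (-0.50 ± 0.12, adjusted p = 0.0307). That call was lost without either Snai1 siRNA array or ncRNA-a7 siRNA replicate 1. It was also lost with the compared groups alone, the same fit as without either control array. The KLF4 call with ncRNA-a7 siRNA against control held in all 15 alternatives. The KLF4 and JUN calls with Snai1 siRNA against control were each kept in 6 of 15 and were lost with the replicate block and without either array of Snai1 siRNA or of control siRNA (adjusted p up to 0.282 and 0.236). The TFAP2A call was lost without Snai1 siRNA replicate 2 or control siRNA replicate 2 (adjusted p up to 0.0559). That of TFAP2C with ncRNA-a7 siRNA was kept in 10 of 15 alternatives. It was lost with no filter and without either array of ncRNA-a7 siRNA or of control siRNA. With Snai1 siRNA the TFAP2C call was kept in 10 of 15 and the FOSL1 call in 8 of 15. Both were lost with an offset of 16, with no filter and without Snai1 siRNA replicate 1 or either control siRNA array. That of FOSL1 was also lost with median scaling and without Snai1 siRNA replicate 2.

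Of 8 epithelial genes CDH1, which encodes E-cadherin, lay at percentiles 94.5 to 97.0 of all probes and EPCAM, an epithelial adhesion molecule, at 81.8 to 92.3. CLDN4, CLDN7 and MUC1 passed the filter with signals from 127 to 291, and ESRP1, ESRP2 and CDH3 lay below it. Likewise 6 of 9 alveolar genes, among them SFTPA1, SFTPD and NKX2-1, and 12 of 17 squamous genes lay below the filter. The 2 called ones of the 5 tested epithelial genes differed in direction with both siRNAs. CDH1 was higher with ncRNA-a7 siRNA (0.72 ± 0.11, limma adjusted p = 0.00202) and with Snai1 siRNA (0.78 ± 0.11, adjusted p = 0.00147) than in control cells. EPCAM was lower with ncRNA-a7 siRNA (-1.64 ± 0.16, adjusted p = 0.000109) and with Snai1 siRNA (-1.12 ± 0.16, adjusted p = 0.00124), and both genes' calls held in all 15 alternatives. CNFN was the 1 squamous gene of 5 tested that was called, higher with Snai1 siRNA (0.52 ± 0.12, limma adjusted p = 0.0181). Its call was kept in 8 of 15 alternatives. It was lost with an offset of 16, median scaling or no filter, and without either array of Snai1 siRNA or of control siRNA. ABCA3 was the 1 alveolar gene of 3 tested that was called, higher with ncRNA-a7 siRNA than control (0.72 ± 0.12, adjusted p = 0.00388) and than Snai1 siRNA (0.53 ± 0.12, adjusted p = 0.0248), the second call being lost without either Snai1 siRNA array or ncRNA-a7 siRNA replicate 1 (up to 0.146).

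Some markers of other cell types differed between the groups. The 4 leukocyte genes on the array summed to 917 to 949 with ncRNA-a7 siRNA, 810 to 1000 with Snai1 siRNA and 657 to 667 with control siRNA. CD14 was higher with ncRNA-a7 siRNA (log2 change 1.01 ± 0.12, limma adjusted p = 0.000447) and with Snai1 siRNA (2.22-fold, adjusted p = 0.000271), ITGAM was higher with ncRNA-a7 siRNA (0.80 ± 0.12, adjusted p = 0.00126), and PTPRC and CD3E lay below the filter. The 5 endothelial genes summed to 813 to 908 with ncRNA-a7 siRNA, 887 to 1036 with Snai1 siRNA and 790 to 804 with control siRNA, with CDH5 and VWF below the filter. Of the 3 tested, ESAM was higher with both siRNAs (0.66 ± 0.12 with ncRNA-a7 siRNA, lost without ncRNA-a7 siRNA replicate 1 or control siRNA replicate 1, and 1.49 ± 0.12 with Snai1 siRNA). PECAM1 (-0.09 with ncRNA-a7 siRNA and -0.21 with Snai1 siRNA) and KDR (0.04 and -0.0017) were not called. The 6 fibroblast genes summed to 1098 to 1101 with ncRNA-a7 siRNA, 1109 to 1284 with Snai1 siRNA and 996 to 1125 with control siRNA, with COL1A2, COL3A1 and PDGFRB below the filter. Of the 3 tested, COL1A1 and LUM were higher with Snai1 siRNA (0.53 ± 0.12 each), and DCN was not called against control. The COL1A1 call was kept in 9 of 14 alternatives and the LUM call in 9 of 15. Both were lost with median scaling and with no filter, and that of LUM with the mean of a gene's probes. The COL1A1 call was also lost without Snai1 siRNA replicate 2 or either control array. That of LUM was also lost without either Snai1 siRNA array or control siRNA replicate 1. Their part in the keratin differences was not tested.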

How the data were processed

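RNA of 6 A549 samples, 2 per siRNA, was labelled with biotin and hybridised to an Illumina bead array, per the labels. The authors deposited 1 linear signal intensity per probe and array, not normalized, and a second table of intensity values in which each array was multiplied by a constant (0.783 to 1) so that all means equal 715. The software used is not stated in the labels or files used here.

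Intensities were corrected with limma (version 3.58.1, R 4.3.3) by normexp at an offset of 50, quantile normalized and log2 transformed, so that changes of dim genes are understated. Of 48701 probes the brighter 24350 by mean were kept. A gene was its brightest probe, which gave 19730 features, 13057 of them named genes. In the platform annotation 28044 probes had 1 symbol, 13 several and 20644 none, and gene IDs of 28005 were found in RefSeq GRCh38.p14, used for names, chromosomes and neighbours. All arrays entered 1 limma fit (3 residual and 8.85 prior degrees of freedom), with Benjamini-Hochberg adjustment over all features. A second fit took every probe as a feature. Alternatives covered background correction, offset, scaling, filter, probe rule, samples in the fit, a replicate block and each array left out. Without an array of the group not compared, the other array of that group adds nothing to the spread. Such a fit therefore equals that of the compared groups alone. The number of arrays limits the precision. The procedure was tested on simulated data.

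The members, lists, tests and alternatives were chosen with earlier results of these data known. Named genes were all members, other keratins that were called and the 3 brightest uncalled, up to 3 called genes of a list with the smallest p per comparison, and the 5 profiles nearest to each called member.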

Additional observations from a re-analysis of the deposited data

How the results depend on the processing

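Calls of KRT80 held in 45 of 45 values (15 alternatives in each of 3 comparisons), and those of KRT7 in both comparisons with Snai1 siRNA in 30 of 30. Keratins called numbered 1 to 3 for ncRNA-a7 siRNA against control, 2 to 3 for Snai1 siRNA against control and 2 to 3 between the siRNAs. With ncRNA-a7 siRNA against control there was 1, KRT80, with an offset of 16, with median scaling, with no filter and with the compared groups alone, and there were 1 to 2 without 1 array. Signs turned in uncalled values alone. With ncRNA-a7 siRNA against control, KRT7 became -0.099 with median scaling and -0.029 with the authors' scaled values, and without 1 array KRT7 ran from -0.024 to 0.061, KRT10 from -0.190 to 0.0021 and KRT19 from -0.051 to 0.31. With Snai1 siRNA against control, KRT19 ran from -0.020 to 0.35 without 1 array. Between the siRNAs, KRT19 became 0.017 with median scaling, and without 1 array KRT8 ran from -0.16 to 0.21 and KRT19 from -0.066 to 0.0031. Leaving out 1 array leaves fewer samples, and other causes were not tested. Leaving out either array of the group not compared repeats the fit of the compared groups alone. The 45 and 30 values above therefore hold repeats and are not all separate checks.

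Features called numbered 1940 for ncRNA-a7 siRNA against control, 1805 for Snai1 siRNA against control and 1598 between the siRNAs. In that order they numbered 1020, 976 and 566 with an offset of 16, 922, 1066 and 698 with median scaling, and 821, 817 and 496 with no filter. Between the siRNAs they numbered 2484 with no background correction, 2502 with a filter that kept probes above the 75% point of brightness and 1053 with the compared groups alone. Without 1 array they ran from 577 to 1693 for ncRNA-a7 siRNA against control, from 494 to 1928 for Snai1 siRNA against control and from 389 to 1053 between the siRNAs. Scaling moved the median over all features by under 0.1 on the log2 scale. Same-numbered arrays did not deviate together (correlations from -0.066 to 0.012), so no pairing by number was detected. The labels do not say whether equal numbers share a culture or a day, and these correlations cannot tell. With the replicate block 1720, 1657 and 1416 features and 2, 3 and 2 keratins were called. Background was not measured on these arrays, which limits the dim keratins most, among them KRT4, KRT15, KRT18 and KRT19.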
